A study of Arabidopsis thaliana with 12 samples.

Results

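Leaves of the Arabidopsis thaliana line des1-1 watered with sodium sulfide (Na2S) were compared with leaves of untreated wild type, to see which functions lay at the untreated wild type level after the treatment and which did not. The comparison rests on the 3 arrays labelled as leaves of des1 with Na2S and the 3 arrays labelled as leaves of wild type with water, 6 of the 12 arrays of the series. The other 6 arrays, 3 of untreated des1 and 3 of treated wild type, are used to show where treated des1 came from and where it stood. Wild type was the Col-0 accession, and des1-1 is a line in the same background with a T-DNA insertion in DES1, the gene of a cytosolic L-cysteine desulfhydrase. All plants grew in soil with 16 h of light and 8 h of dark for 20 days. They were then given either plain water or Na2S, 200 mM as the labels state it, for 10 days, and leaves were taken at 30 days. That dose is very high for plants, and whether the unit in the labels is right could not be settled here. The design text calls the 3 samples of each group biological replicates. The line is a single insertion allele without a second allele or a rescued line. Plain water does not match the sodium or the alkalinity of the Na2S solution, so effects of sulfide and of the rest of the solution cannot be told apart. The hour of harvest is not in the labels. The transcript of DES1 itself is not analysed here, so the label of the line was not checked against it.

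DES1 splits L-cysteine into sulfide, ammonia and pyruvate in the cytosol. Sulfide acts in plants as a signal that alters proteins at cysteine residues, and in Arabidopsis leaves the enzyme is known for holding back autophagy and early senescence. Chloroplasts make sulfide too when they reduce sulfate, but there it is mostly taken up into cysteine. In whole leaves, fewer cells of a type and less RNA per cell cannot be told apart.

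The arrays were Affymetrix ATH1 chips, whose values were deposited as log2 expression, so that a difference of 1 is a 2-fold change. A probe set is the group of probes that reads a transcript. Of 22746 probe sets tested, 13513 were paired with exactly 1 gene, and only those are named. Pearson correlations, taken over all probe sets of an array pair as a description, lay from 0.9951 to 0.9974 among the treated des1 arrays and from 0.9938 to 0.9975 among the untreated wild type arrays. They lay from 0.9687 to 0.9731 between these groups. Of the marker genes of leaf and other cell types, just 3 were measured, so the labelled tissue could not be checked against mesophyll markers. These were the stomatal regulator FMA, the trichome repressor TRY and PYK10, a beta-glucosidase best known from roots. The array's control probe sets differed between treated des1 and untreated wild type by -0.04 to 0.17 for GAPDH, by -0.34 to 0.07 for actin, by 0.01 to 0.34 for ubiquitin and by -0.13 for 25S ribosomal RNA. In untreated des1 those for ubiquitin stood 0.61 to 1.07 above untreated wild type and that for 25S ribosomal RNA 1.09 below it (-1.09), and their part in the results was not tested.

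Treated des1 lay closer to untreated wild type than untreated des1 did, but it did not lie on it. A probe set was called different when limma's p-value, adjusted by Benjamini-Hochberg over all 22746, was below 0.05. By this test 6883 probe sets differed between treated des1 and untreated wild type, 30.3% of those tested, with 3229 higher (14.2%) and 3654 lower (16.1%) in treated des1. Under water, 10166 probe sets differed between des1 and wild type, 44.7% of those tested, 22% higher and 22.6% lower in des1. Both counts use the same untreated wild type arrays, so they are given side by side only. Differences of at least 2-fold were called for 654 higher and 826 lower probe sets in treated des1, 6.51% in all, and for 1530 higher and 1493 lower ones in untreated des1, 13.3% in all. The median absolute difference was 0.18 in the first comparison and 0.25 in the second. The split into higher and lower depended on the scaling: with each array centred on its own median, 4080 probe sets were higher and 3076 lower in treated des1, as the median difference of all probe sets moved from 0.03 to 0.09.

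A transcript was taken to lie at the untreated wild type level when the 95% interval of its difference fell within 1.5-fold in either direction. This held for 15631 probe sets in treated des1, 68.7% of those tested, and for 12908 in untreated des1, 56.7%. The direct test of treated against untreated des1 called 8443 probe sets, 37.1%, with 3989 higher and 4454 lower after treatment. Treated des1 and treated wild type differed at 318 probe sets, 1.4%, and the median absolute difference between them was 0.10. Treated wild type differed from untreated wild type at 6919 probe sets, 30.4%, with a median absolute difference of 0.19. By these counts treated des1 stood beside treated wild type, at about the same distance from untreated wild type.

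**Figure D1:**
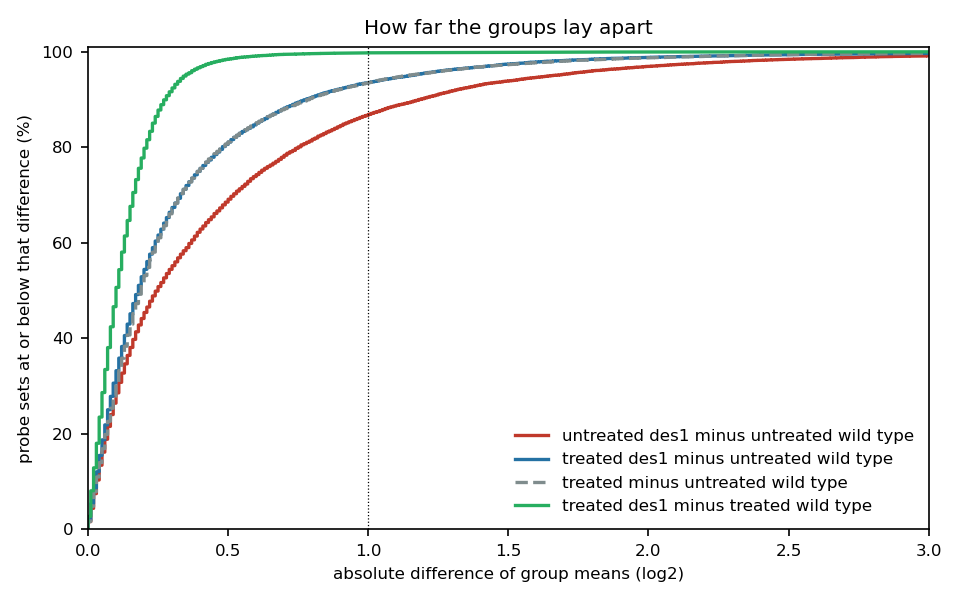
Share of the 22746 probe sets (vertical axis, percent) whose absolute difference between group means (horizontal axis, log2) is at or below a given value, for 4 comparisons. The curve of treated des1 against untreated wild type runs along that of treated against untreated wild type, with medians of 0.18 and 0.19, and between untreated des1 against untreated wild type (0.25) and treated des1 against treated wild type (0.10). The dotted line marks a 2-fold difference.

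The largest differences of treated des1 from untreated wild type were held at much the same size by untreated des1. HYH, a light-signalling transcription factor close to HY5, read 5.44, 5.22 and 5.65 in untreated wild type and 9.27, 8.94 and 9.20 in treated des1. The groups did not overlap, as the rule for naming the largest differences required. HYH was 13.0-fold higher in treated des1 (log2 difference 3.70 ± 0.13 SE, adjusted p = 3.43e-13). Untreated des1 read 9.01, 9.11 and 8.86, so its difference from wild type was 3.56. Treated and untreated des1 differed in HYH by 0.14 (adjusted p = 0.447). AT2G27420 rose more than any other probe set of a single gene, from 4.24, 4.28 and 3.90 in untreated wild type to 9.77, 10.02 and 9.94 in treated des1, and it stood at 10.35, 10.12 and 10.40 in untreated des1. Its difference from untreated wild type was 5.77 ± 0.12 after treatment and 6.15 before (adjusted p = 4.57e-16 and 1.03e-16). AT5G42760, AT3G15310, AT5G47610, TBL26, a member of the family that adds acetyl groups to wall polysaccharides, and AT1G26790 were higher by 3.08 to 3.60 in treated des1 and by 3.11 to 4.20 in untreated des1. AT5G15950 was higher by 2.86 in treated and by 3.67 in untreated des1.

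The largest falls were also of similar size in untreated des1. PORB, the light-dependent enzyme that makes chlorophyllide, read 12.44, 12.71 and 12.50 in untreated wild type and 7.67, 7.73 and 7.63 in treated des1, a 29.3-fold difference (-4.87 ± 0.10, adjusted p = 4.57e-16). In untreated des1 it read 6.02, 6.18 and 6.25, and the treatment raised it by 1.53 (adjusted p = 1.61e-09). PORB therefore moved towards wild type and still lay far below it. AT1G56300 went from 9.32, 9.50 and 9.50 in untreated wild type to 3.46, 3.40 and 3.42 in treated des1 (-6.01 ± 0.10, adjusted p = 1.67e-17), with -5.87 in untreated des1. Its values outside untreated wild type lay under the lower quartile of every array, where differences are compressed. The same holds for 1 or more of the groups compared in AT2G39920, AT4G16146, AT1G26790, AT3G17520, HIS1-3, AT5G45670, TUB1, JAL22, PYK10, UGT78D3 and BAN, so the sizes of their differences are compressed too. AT4G30660 and AT4G30650, which are neighbours by locus number, were lower by 4.94 and 3.97 in treated des1 and by 4.73 and 4.53 in untreated des1. AT5G62360, AT2G39920, AT3G47160 and AT4G16146 were lower by 4.41 to 4.83 in treated des1 and by 4.01 to 4.73 in untreated des1.

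A few of the largest differences were larger after treatment than before. AT3G62550 read 11.30, 11.21 and 11.44 in untreated wild type, 8.85, 8.65 and 8.57 in untreated des1 and 5.81, 5.53 and 5.96 in treated des1. The 3 groups did not overlap, and treated des1 lay 2.92 below untreated des1 (adjusted p = 1.99e-12). CCL, named for its likeness to the light and clock regulated gene CCR, fell in the same order, with a difference from untreated wild type of -1.64 in untreated and -4.03 ± 0.09 in treated des1 (adjusted p = 2.31e-15). Among the rises, CHIL (2.87 and 3.65) and AT1G06000 (1.76 and 2.93) were higher in treated than in untreated des1 as well, by 0.77 and 1.17 (adjusted p = 1.62e-05 and 3.15e-08).

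**Figure D2:**
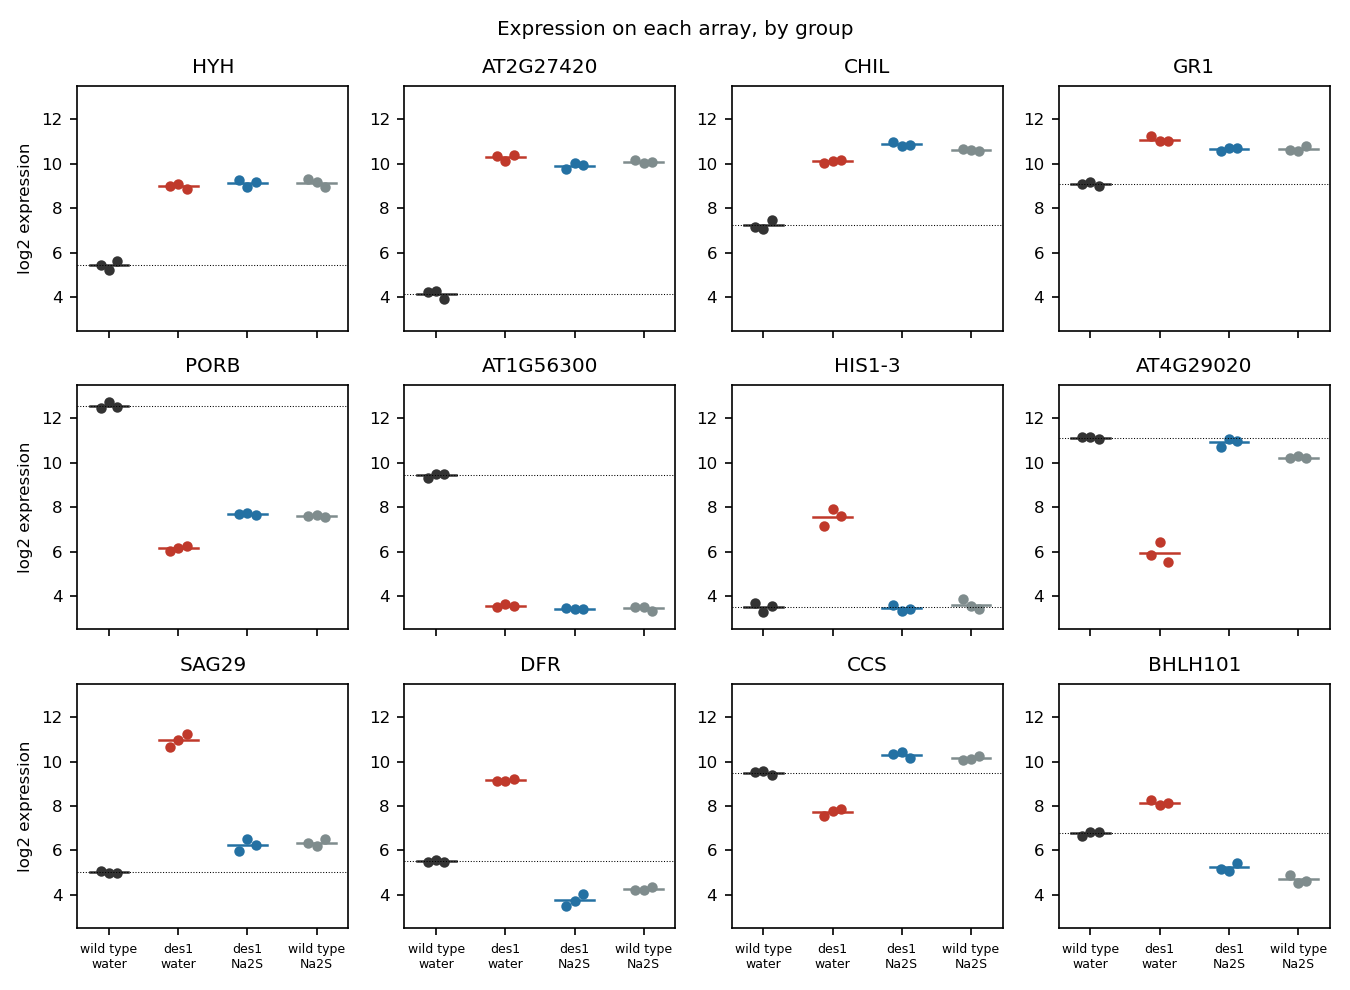
Log2 expression (vertical axis) of 12 genes on each of the 12 arrays, by group; each point is an array, each bar a group mean, and the dotted line the untreated wild type mean. HYH, AT2G27420, CHIL, GR1, PORB and AT1G56300 stay away from that line in treated des1, HIS1-3 and AT4G29020 lie on or near it, SAG29 lies just above it, and DFR and BHLH101 lie below it while CCS lies above it, each on the other side from untreated des1.

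The genes that separated the untreated genotypes most were, in part, back at the wild type level. HIS1-3, a linker histone of drought-stressed leaves, read 7.15, 7.91 and 7.59 in untreated des1, 3.58, 3.34 and 3.43 in treated des1 and 3.69, 3.28 and 3.56 in untreated wild type. Treated des1 and untreated wild type overlapped, with a difference of -0.06 ± 0.17 (adjusted p = 0.848) at a dim level. AT3G17520, which is as dim as HIS1-3 in these groups, and AT1G68620, each 4.04 higher in untreated des1, differed from untreated wild type by -0.01 and 0.11 after treatment, and AT2G25625, 4.1 higher before, by 0.15 (adjusted p = 0.458 to 0.965). On the falling side, AT4G29020 read 5.85, 6.44 and 5.53 in untreated des1, 10.72, 11.05 and 10.99 in treated des1 and 11.14, 11.14 and 11.08 in untreated wild type. The last groups differed by -0.20 ± 0.16 (adjusted p = 0.421), although they did not overlap. In treated wild type AT2G25625 lay 0.92 above and AT4G29020 0.90 below untreated wild type (adjusted p = 1.62e-05 and 0.000293). AT5G45670, 4.72 lower in untreated des1, was 0.32 lower in treated des1 (adjusted p = 0.0492), and lost that call when any of 5 of the 6 arrays was left out, the exception being replicate 2 of untreated wild type, and with arrays centred on their medians (adjusted p = 0.121). It was also lost with a trended robust variance (adjusted p = 0.06), with the replicate number as a block (adjusted p = 0.0671) and over probe sets of 1 gene only (adjusted p = 0.0556).

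Others kept part of their difference, and a few lay past the wild type level. SAG29, a sugar transporter of the SWEET family that marks senescing leaves, read 5.10, 5.01 and 5.01 in untreated wild type, 10.67, 10.99 and 11.24 in untreated des1 and 5.99, 6.50 and 6.26 in treated des1. It thus stayed 2.31-fold higher than in untreated wild type (1.21 ± 0.14, adjusted p = 2.72e-06), against 60.8-fold before. CML41, a calmodulin-like protein, was 4.07 higher before and 0.66 higher after treatment (adjusted p = 5.35e-05). WLIM2a, a LIM-domain protein that bundles actin, was lower by 4.46 before and by 3.01 after, and AT2G33850 lower by 4.76 and 3.08. AT3G28270 was higher by 4.02 and 2.80. AT5G39520 crossed the untreated wild type level, from 4.70 above it to 0.65 below it (adjusted p = 0.0012), and AT5G48490 from 5.01 below it to 0.60 above it (adjusted p = 0.000259).

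Flavonoid genes stood on both sides of the untreated wild type level after treatment. Anthocyanins and flavonols share the early part of the pathway, after which DFR leads to anthocyanins and the UGT78D enzymes attach sugars to flavonols and anthocyanins. Of 8 measured members, 6 were higher and none lower in untreated des1, while 4 were higher and 2 lower in treated des1. That made 75% called in each state, against 44.7% and 30.3% of all probe sets. DFR, dihydroflavonol reductase, read 9.12, 9.14 and 9.22 in untreated des1, 3.51, 3.73 and 4.05 in treated des1 and 5.50, 5.57 and 5.49 in untreated wild type. Treated des1 lay below both without overlap, 3.38-fold under untreated wild type (-1.76 ± 0.12, adjusted p = 1.99e-09). Replicates 1 and 2 of treated des1 lay under the lower quartiles of their own arrays (3.75 and 3.9), where differences are compressed. UF3GT, which adds xylose to anthocyanins, was higher by 3.26 in untreated des1 and lower by 0.78 in treated des1 (adjusted p = 0.00337). AT4G14090, placed in the list by its locus, was 3.78 higher in untreated des1 and differed by -0.05 after treatment, with a 95% interval of -0.37 to 0.27. CHIL, a chalcone isomerase-like protein of the early pathway, was higher in both states. It read 7.18, 7.07 and 7.47 in untreated wild type, 10.05, 10.11 and 10.18 in untreated des1 and 10.98, 10.82 and 10.86 in treated des1, 12.5-fold over untreated wild type (3.65 ± 0.11, adjusted p = 4.53e-14). The flavonol glycosyltransferases UGT78D2 (2.15 after, 2.35 before) and UGT78D1 (1.85 after, 1.39 before) also stayed high. UGT78D3 was 0.41 higher after treatment (adjusted p = 0.013), and BAN, anthocyanidin reductase, differed by 0.37 (adjusted p = 0.0979).

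Chlorophyll synthesis came part of the way. Of 11 measured genes of tetrapyrrole and chlorophyll synthesis, 8 were lower in untreated des1 and 6 in treated des1, with none higher in either. These were 72.7% and 54.5% of the list, against 44.7% and 30.3% called of all probe sets. The median difference of the list was -1.13 before and -0.37 after, against 0.01 and 0.03 for all probe sets. HEME1, a uroporphyrinogen decarboxylase, read 10.11, 9.75 and 10.13 in untreated wild type, 7.14, 7.51 and 7.29 in untreated des1 and 8.91, 9.03 and 9.07 in treated des1. It lay between the other groups with no overlap, 0.99 ± 0.12 below untreated wild type (adjusted p = 3.37e-06). CHLI2, a subunit of magnesium chelatase (-1.26 after, -2.08 before), HEME2 (-0.79 and -1.97), GSA1, which makes aminolevulinate (-0.64 and -1.21), and HEMB1, the next enzyme (-0.37 and -1.13), stood in the same order. CHLM, the magnesium protoporphyrin methyltransferase, was back, at 12.23, 12.28 and 12.17 against 12.14, 12.28 and 12.14 in untreated wild type (0.04, 95% interval -0.17 to 0.25), after -0.55 in untreated des1. LIL3:1 did not pass the test after treatment (-0.16, adjusted p = 0.237), after -0.61 before. PORB was the member furthest from wild type in both states. Treated wild type had 6 of the 11 genes lower than untreated wild type and none higher, with a median of -0.28. That was 54.5% called, against 30.4% of all probe sets. None of the 11 was called between the treated genotypes, against 1.4% of all probe sets.

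Of 13 measured nuclear photosynthesis genes, 3 were higher and 1 lower in treated des1, 30.8% and so near the 30.3% of all probe sets. Of the 13, 9 lay within 1.5-fold of untreated wild type, against 68.7% of all probe sets. In untreated des1, 5 were higher and 3 lower, 61.5% against 44.7% of all probe sets. Their differences lay from -0.64 to 0.53 before and from -0.42 to 0.88 after treatment. The light-harvesting protein LHCB4.1 (-0.64 before, -0.18 after, adjusted p = 0.196) and the photosystem I subunit PSAN (-0.49 before, 0.04 after, adjusted p = 0.839) no longer passed the test. SBPASE and PRK, enzymes of the Calvin cycle, stayed higher (0.62 and 0.45 after, 0.53 and 0.51 before), as did LHCB4.3 (0.88 and 0.53). PGRL1B, a protein of cyclic electron flow, went from 0.50 above to 0.42 below untreated wild type (adjusted p = 0.00284).

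Of 69 measured transcripts of the plastid genome, 2 were higher and 21 lower in treated des1, and 2 were higher and 23 lower in untreated des1; the medians were -0.22 and -0.25. The shares called, 33.3% and 36.2%, were near the 30.3% and below the 44.7% of all probe sets. Without replicate 3 of treated des1, 15 in place of 23 passed. The largest differences in treated des1 were those of ycf3, needed to assemble photosystem I (-1.33, adjusted p = 0.00236), accD, a subunit of acetyl-CoA carboxylase (-1.22, adjusted p = 0.000989) and the ribosomal protein gene rpl20 (-1.12). accD differed by -0.10 in untreated des1 (adjusted p = 0.811), and psbB, a photosystem II core protein, by -1.33, with -0.79 after treatment. Organelle transcripts mostly lack poly(A) tails and the labelling kit primes from them, so these values are less direct than those of nuclear genes. Of 15 mitochondrial transcripts, 9 were higher and none lower in untreated des1 (60%, against 44.7% of all probe sets). In treated des1 3 were higher and 1 lower (26.7%, against 30.3%), and 9 of the 15 lay within 1.5-fold, against 68.7% of all probe sets. The respiratory chain genes nad9 and nad1 stayed 0.58 and 0.47 higher, after 1.30 and 1.23 before, and cox1 differed by -0.16 (adjusted p = 0.563), after 0.99 before.

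**Figure D3:**
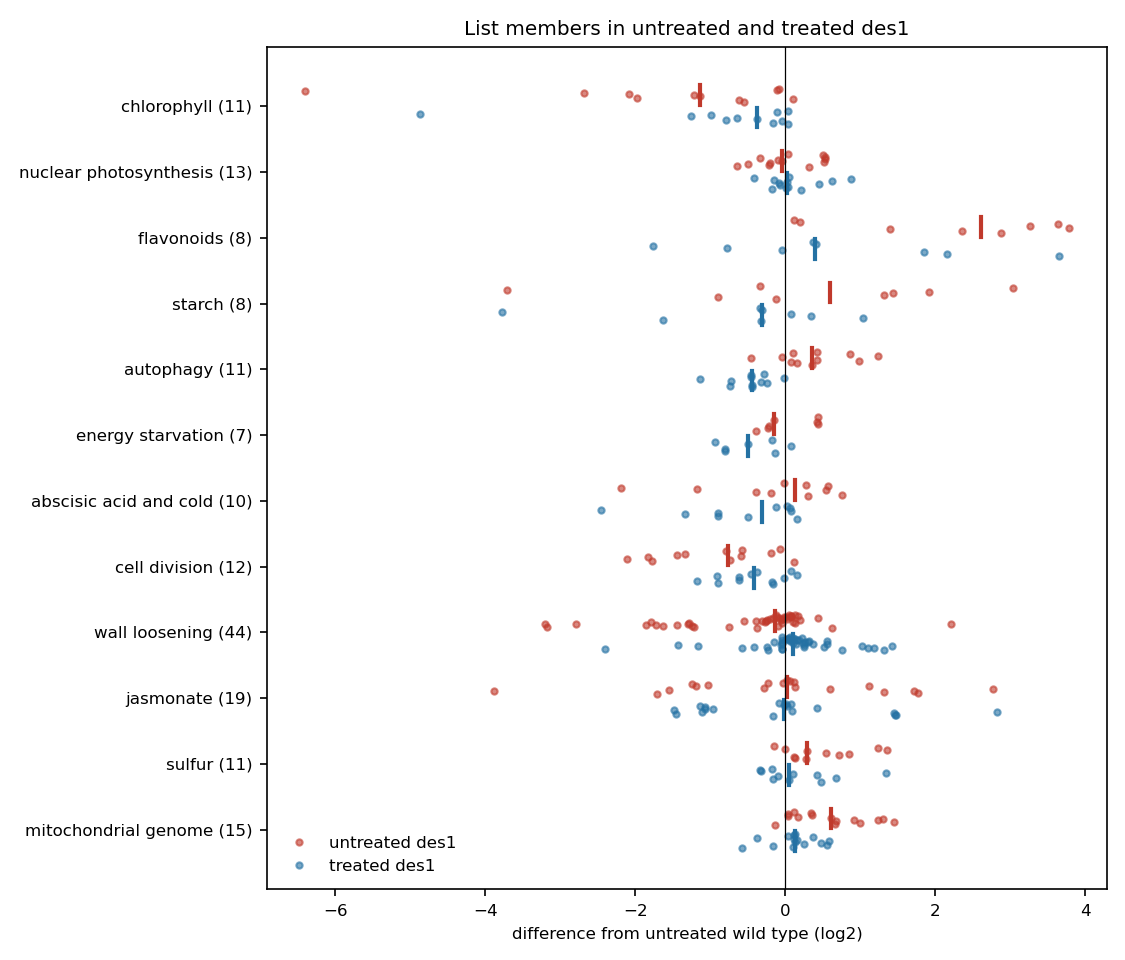
Difference from untreated wild type (horizontal axis, log2) of each measured member of 12 gene lists, in untreated des1 (red, upper points of each pair) and in treated des1 (blue, lower points). Vertical bars are medians and the numbers in brackets count measured members. The medians of chlorophyll synthesis move from -1.13 to -0.37, of flavonoids from 2.61 to 0.39 and of autophagy from 0.35 to -0.44.

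Of the autophagy genes that passed the test after treatment, each lay below untreated wild type. ATG8 proteins coat the growing autophagosome, and Arabidopsis has a family of them. Of 11 measured genes, 6 were higher and 1 lower in untreated des1, and none was higher and 7 lower in treated des1. Both states had 63.6% called, against 44.7% and 30.3% of all probe sets, and the medians were 0.35 and -0.44. ATG8D read 7.77, 7.43 and 8.02 in untreated wild type, 7.65, 7.79 and 7.62 in untreated des1 and 6.86, 6.33 and 6.63 in treated des1. The untreated groups overlapped, and treated des1 lay 2.19-fold below untreated wild type (-1.13 ± 0.15, adjusted p = 1.32e-05). ATG8F had the same order (0.15 before, -0.73 after, adjusted p = 0.305 and 2.61e-05), and ATG8E was lower in both states (-0.45 and -0.72). ATG8B and APG8A, the latter another name for ATG8A, were the members that rose most under water with ATG8G, and neither passed after treatment: ATG8B went from 1.24 to -0.02 (95% interval -0.31 to 0.26) and APG8A from 0.98 to -0.24 (adjusted p = 0.146). ATG8G went from 0.86 to -0.46 (adjusted p = 0.00986), a call that was lost without replicate 2 of treated des1 (-0.31, adjusted p = 0.0713). Without that array, 4 in place of 7 genes of the list passed, and without replicate 2 of untreated des1 4 in place of 7 passed under water. Treated wild type had 5 of the 11 genes lower than untreated wild type and none higher, with a median of -0.39. That was 45.5% called, against 30.4% of all probe sets, and ATG8D stood at -1.03 there. None of the 11 was called between the treated genotypes, against 1.4% of all probe sets.

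The energy starvation list, genes switched on when carbon runs short, showed a similar count. Of 7 measured genes, none was higher and 4 lower in treated des1, while 3 were higher and 1 lower in untreated des1. Called were thus 57.1% in each state, against 30.3% and 44.7% of all probe sets. In untreated des1 the count fell to 2 without replicate 2 of that group. MCCA and MCCB, subunits of an enzyme of leucine breakdown, and AKINBETA1, a subunit of the SnRK1 kinase, were lower by 0.93, 0.80 and 0.80 after treatment (adjusted p = 1.89e-06 to 0.000108). None of them passed the test in untreated des1, but AKINBETA1 did so without replicate 3 of untreated des1 (-0.32, adjusted p = 0.0391). IVD, of the same leucine pathway, went from 0.42 above, a call lost without replicate 2 of untreated des1 or replicate 3 of untreated wild type (adjusted p = 0.0541 to 0.0638), to 0.50 below. The senescence list held 7 genes, of which 4 were higher in untreated des1. Its shares called, 57.1% there and 42.9% after treatment, compare with 44.7% and 30.3% of all probe sets. After treatment 1 was higher and 2 lower, but with arrays centred on their medians 3 were higher and none lower, and just 1 gene passed without replicate 2 of treated des1 or replicate 3 of untreated wild type. WRKY53 and WRKY6, regulators of leaf senescence, went from 0.83 and 0.69 to 0.16 and 0.12 (adjusted p = 0.457 and 0.611). YLS5 went from 0.53 to 0.26 (adjusted p = 0.0643). It passed without replicate 2 of untreated wild type (adjusted p = 0.0154) and with arrays centred on their medians (adjusted p = 0.0227). YLS5 also passed with dim probe sets left out (adjusted p = 0.0403) and with a trended robust variance (adjusted p = 0.0433). SAG29 led the list in both states.

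Sulfur and redox genes were mixed. Of 11 genes of sulfur metabolism, 4 were higher and none lower in treated des1, and 5 were higher and none lower in untreated des1. These shares, 36.4% and 45.5%, were near the 30.3% and 44.7% of all probe sets. MGL, which splits methionine, read 5.51, 5.37 and 4.75 in untreated wild type, 6.79, 6.35 and 6.51 in treated des1 and 6.42, 6.66 and 6.64 in untreated des1. It was 2.53-fold higher after treatment (1.34 ± 0.16, adjusted p = 3.10e-06), and treated and untreated des1 overlapped. AT1G04770, placed in the list by locus, was higher by 0.67 after and 0.71 before. APS4, an ATP sulfurylase (0.85 before, -0.10 after, adjusted p = 0.542), and OASA2, of the cysteine synthase family (1.23 before, -0.33 after, adjusted p = 0.159), no longer passed. SIR, the plastid sulfite reductase, was 0.48 higher after treatment (adjusted p = 0.00263) and CPNIFS, a plastid cysteine desulfurase, 0.42 higher (adjusted p = 0.0147).

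Among 9 antioxidant genes, 3 were higher and 2 lower in treated des1, against 3 and 5 before. In shares this was 55.6% and 88.9%, against 30.3% and 44.7% of all probe sets. After treatment 3 passed without replicate 3 of untreated wild type, and 3 with arrays centred on their medians. GR1, cytosolic glutathione reductase, read 9.08, 9.18 and 8.98 in untreated wild type, 11.24, 11.01 and 11.01 in untreated des1 and 10.56, 10.72 and 10.70 in treated des1, which left it 2.99-fold higher (1.58 ± 0.11, adjusted p = 1.94e-09). The organelle enzyme GR stayed higher as well (0.57 after, 0.94 before). CCS, the copper chaperone of superoxide dismutase, crossed over: it read 7.56, 7.77 and 7.87 in untreated des1, 10.33, 10.41 and 10.17 in treated des1 and 9.54, 9.57 and 9.39 in untreated wild type, so it went from 1.77 below to 0.80 ± 0.11 above (adjusted p = 1.26e-05). SAPX, the stromal ascorbate peroxidase, was back (0.21, adjusted p = 0.172, after -0.80). Of 8 thioredoxins and glutaredoxins, 1 was higher and 3 lower in treated des1 (50%, against 30.3% of all probe sets). In untreated des1 3 were higher and 2 lower (62.5%, against 44.7%). GRXC1 stayed higher (0.72 after, 1.28 before), ATHM2 and TRXF2, thioredoxins of the plastid, were lower by 0.62 and 0.49 after treatment, and GRX480, a glutaredoxin of the salicylate response, no longer passed (1.34 before, 0.27 after, adjusted p = 0.293).

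Iron genes moved to both sides. BHLH101, a transcription factor of the iron deficiency response, read 6.67, 6.85 and 6.82 in untreated wild type, 8.28, 8.05 and 8.13 in untreated des1 and 5.19, 5.07 and 5.46 in treated des1. It went from 2.59-fold above to 2.91-fold below untreated wild type (-1.54 ± 0.12, adjusted p = 1.83e-08) with no overlap. PYE, another regulator of that response, went from 1.06 to -0.30 (adjusted p = 0.0634, or 0.0413 to 0.0416 with dim probe sets left out or with compared arrays only), and ILR3, its partner, from 0.70 to 0.33 (adjusted p = 0.012, or 0.0691 without replicate 2 of treated des1). BGLU42, a beta-glucosidase, stayed lower (-1.27 and -1.05). Of the 5 genes of this list, 1 was higher and 2 lower in treated des1 (60%, against 30.3% of all probe sets). In untreated des1 3 were higher and 1 lower (80%, against 44.7%).

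In the abscisic acid and cold list of 10 genes, none was higher, 5 were lower and 5 did not pass in treated des1. Under water 4 were higher and 2 lower in des1. This gives 50% and 60% called, against 30.3% and 44.7% of all probe sets. COR15B, a chloroplast protein of cold-treated leaves, read 7.21, 7.22 and 7.36 in untreated wild type and 4.84, 4.77 and 4.83 in treated des1 (-2.45 ± 0.13, adjusted p = 4.70e-11), with -2.19 in untreated des1. Its neighbour COR15A was 1.34 lower in treated des1 (adjusted p = 4.94e-06) and did not pass in untreated des1 (-0.39, adjusted p = 0.0697), where it passed under 3 alternatives (adjusted p = 0.00625 to 0.0389). The dehydrins COR47 and LTI30 crossed from 0.75 and 0.54 above to 0.49 and 0.89 below, and RD2 was lower by 0.89 (adjusted p = 1.04e-06). Of 5 cation/proton exchangers in the salt list, CHX20, which works in guard cells, was higher by 0.41 after treatment (adjusted p = 0.0109, or 0.0702 without replicate 1 of untreated wild type) and CHX16 lower by 0.64. Both passed in the same direction in untreated des1 (0.65 and -0.57). Of 7 heat and protein folding genes, 2 were higher and none lower in treated des1, 28.6% and so near the 30.3% of all probe sets. Among them were AT5G48570 (2.53 after, 1.87 before) and BZIP60, a regulator of the unfolded protein response (0.52 and 0.93).

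Of 19 measured genes of jasmonate signalling, defensins, thionins and jacalin lectins, 5 were higher and 7 lower in treated des1. In untreated des1 6 were higher and 6 lower. Each state had 63.2% called, against 30.3% of all probe sets in treated and 44.7% in untreated des1. JMT, which methylates jasmonate, read 3.91, 3.99 and 3.98 in untreated wild type, 6.48, 6.85 and 6.86 in untreated des1 and 6.67, 6.68 and 6.99 in treated des1, 7.06-fold higher (2.82 ± 0.12, adjusted p = 3.17e-12). MYC4, a transcription factor of the jasmonate response, stayed higher by 1.45 (1.72 before), and the defensins PDF1.2 and PDF1.2b by 1.47 and 1.46 (1.77 and 1.32 before). These defensin genes are near copies, and whether their probe sets read each other's transcripts was not tested. LCR69, another defensin, came part of the way (-3.88 before, -1.45 after), and LCR68 came back (-1.71 before, -0.16 after, adjusted p = 0.264). The jacalin lectins JAL23 and JAL34 were lower by 1.48 and 1.07 after treatment and did not pass before it (-0.28 and 0.13), while JAL22 and JAL33 were lower in both states (-1.14 and -0.96 after, -1.24 and -1.19 before). Thionins THI2.2 and THI2.1 also stayed lower (-1.11 and -1.07 after, -1.55 and -1.03 before).

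Of 8 measured WRKY and NAC transcription factors, 6 were higher in untreated des1 and 1 in treated des1. These were 75% and 12.5%, against 44.7% and 30.3% called of all probe sets. After treatment 6 lay within 1.5-fold, against 68.7% of all probe sets. The member that passed was WRKY47 (0.49 after, 1.54 before), which missed the threshold without replicate 1 or 2 of treated des1 or replicate 1 or 3 of untreated wild type (adjusted p = 0.0513 to 0.102). The count moved with the setting: 4 members passed with arrays centred on their medians, 3 with quantile normalization, with dim probe sets left out or with compared arrays only, and 0 without those same arrays. ZAP1, another name for WRKY1, differed by 0.28 (adjusted p = 0.0593, or 0.0227 to 0.0447 under 4 alternatives), after 0.73, and NAC014 by 0.11 (adjusted p = 0.58), after 0.75. WRKY53 is counted both here and in the senescence list.

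Starch and sugar genes split gene by gene. DPE1, which processes maltotriose from starch in the plastid, read 8.54, 8.68 and 8.25 in untreated wild type, 5.02, 4.63 and 4.68 in untreated des1 and 4.69, 4.90 and 4.58 in treated des1, 13.6-fold lower (-3.77 ± 0.15, adjusted p = 1.22e-12) with the des1 groups overlapping. PWD (AT5G26570), which phosphorylates starch, was lower by 1.63 after and 0.90 before. AMY1, an alpha-amylase, went from 3.03 above to -0.31 (adjusted p = 0.127), with a 95% interval of -0.62 to 0.00 that reaches past 1.5-fold, and AT4G24450, which the annotation also calls PWD, from 1.92 to 0.07. QQS, an orphan gene that affects leaf starch, stayed higher (1.04 after, 1.31 before). In all, 2 of 8 starch genes were higher and 2 lower in treated des1, against 4 and 2 in untreated des1. As shares these were 50% and 75%, against 30.3% and 44.7% of all probe sets. Among 21 sugar transporters, 5 were higher and 4 lower after treatment (42.9%) and 6 and 4 before (47.6%). SAG29 is counted both among them and in the senescence list. SWEET13, a sucrose exporter of the phloem, read 7.91, 7.61 and 7.74 in untreated des1 and 4.94, 5.12 and 5.01 in treated des1, against 5.09, 5.04 and 5.18 in untreated wild type (-0.08, 95% interval -0.29 to 0.13). SWEET2 and SWEET1 stayed higher by 2.38 and 1.93, after 1.72 and 1.30. TMT1, a sugar carrier of the vacuole, stayed lower (-1.18 after, -1.69 before).

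**Figure D4:**
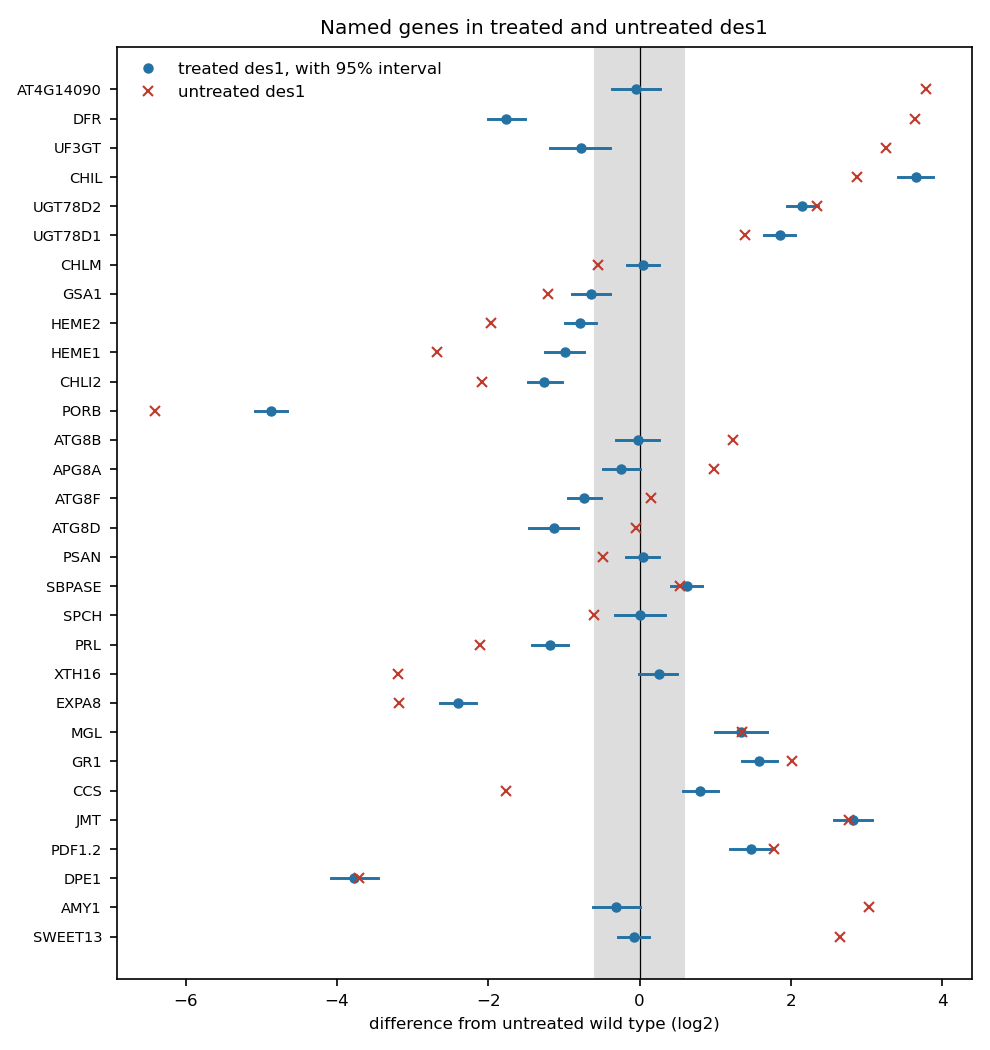
Difference from untreated wild type (horizontal axis, log2) of 30 named genes in treated des1 (blue points, with the unadjusted 95% interval) and in untreated des1 (red crosses). The grey band is 1.5-fold in either direction. CHLM, ATG8B, PSAN, SPCH and SWEET13 have intervals inside the band, while CHIL, JMT, DPE1 and PORB lie far outside it.

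Of 12 cell division genes, 9 were lower in untreated des1 and 7 in treated des1, with none higher in either. They made up 75% and 58.3% of the list, against 44.7% and 30.3% called of all probe sets. The medians were -0.76 and -0.41. PRL, the replication licensing protein MCM7, read 7.22, 7.32 and 7.24 in untreated wild type, 5.10, 5.15 and 5.21 in untreated des1 and 6.18, 5.99 and 6.06 in treated des1 (-1.18 ± 0.11, adjusted p = 1.97e-07). The 3 groups did not overlap. The Aurora kinase AUR1 (-0.61 after, -1.83 before), AUR2 (-0.61 and -1.44), the primase subunit POLA3 (-0.90 and -1.77) and HTR12, the histone of centromeres (-0.91 and -1.34), stood in the same order. With dim probe sets left out, 4 of the list passed. Of 6 genes of stomata and trichomes, 5 were lower in untreated des1 and none in treated des1. Counting both directions, 100% were called before and 33.3% after treatment, against 44.7% and 30.3% of all probe sets. SPCH, which starts the stomatal lineage, differed by 0.00 ± 0.16 after treatment (adjusted p = 0.99, 95% interval -0.33 to 0.33), after -0.60, and SIM, a cell cycle inhibitor of trichomes, by -0.02, after -0.59. STOMAGEN, a peptide that favours stomata, crossed from 1.62 below to 0.82 above (adjusted p = 0.000135). TRY, a repressor of trichomes, stayed higher (2.42 after, 1.78 before). With arrays centred on their medians, 4 in place of 2 genes of this list passed in treated des1, all higher.

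Of 44 measured wall-loosening genes (expansins, xyloglucan enzymes and cellulases), 3 were higher, 16 lower and 25 did not pass in untreated des1, and 10 were higher, 5 lower and 29 did not pass in treated des1. The shares called, 34.1% after treatment and 43.2% before, were near the 30.3% and 44.7% of all probe sets. XTH16, a xyloglucan enzyme, read 3.84, 4.19 and 4.22 in untreated des1, 7.66, 7.32 and 7.60 in treated des1 and 7.28, 7.17 and 7.39 in untreated wild type, which overlapped. Its difference after treatment was 0.25 ± 0.12 (adjusted p = 0.142), though it passed without replicate 2 of treated des1 (0.35, adjusted p = 0.0476). The expansin EXPB1 went from 2.79 below to 0.51 above, GH9B8, an endoglucanase, from 1.44 below to 1.1 above, and EXLA2 from 1.30 below to 1.02 above. EXPA8 was the exception in size: it read 10.90, 11.08 and 10.93 in untreated wild type, 7.91, 7.62 and 7.83 in untreated des1 and 8.63, 8.36 and 8.72 in treated des1, still 5.28-fold lower (-2.40 ± 0.11, adjusted p = 1.66e-11). XTH19 stayed higher (1.42 after, 2.21 before). Of 40 genes of wall synthesis, acetylation and pectin, 11 were higher and 6 lower in treated des1 (42.5%), against 10 and 14 before (60%). CSLC04, a xyloglucan synthase, came most of the way (-2.15 before, -0.40 after), and TBL45 no longer passed (-2.48 before, -0.29 after, adjusted p = 0.0871). TBL45 did pass without replicate 2 of untreated wild type (adjusted p = 0.0333) and with quantile normalization (adjusted p = 0.0435). Of 5 cuticle genes, 1 was higher and 2 lower after treatment (60%) and 4 were lower before (80%). WSD1, a wax ester synthase, crossed from 0.60 below to 1.61 above, and AT5G33370, placed in that list by locus, stayed 2.12 lower.

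Of 44 cytoskeleton genes, 7 were higher and 21 lower in untreated des1 (63.6%, against 44.7% of all probe sets). In treated des1 8 were higher and 12 lower (45.5%, against 30.3%). That last balance turned to 11 higher and 9 lower with arrays centred on their medians. The beta-tubulin TUB5 read 10.68, 10.78 and 10.72 in untreated wild type, 7.39, 7.48 and 7.52 in untreated des1 and 8.19, 8.03 and 8.20 in treated des1, 6.01-fold lower (-2.59 ± 0.10, adjusted p = 6.32e-13). TUB1 stood at -3.19 before and -1.22 after, and SP1L4, of a family of microtubule proteins, stayed higher (1.49 and 2.02). Of 4 clock and light genes besides CCL, 1 was higher and 2 lower in treated des1 (75%, against 30.3% of all probe sets). In untreated des1 2 were higher and 1 lower (75%, against 44.7%). The rise in treated des1 was that of HYH (3.70), described above. GI, a clock protein that peaks late in the day, was 3.36-fold lower in treated des1 (-1.75 ± 0.12, adjusted p = 1.70e-09) and 1.02 lower in untreated des1. TIC, another clock component, crossed from 0.43 above to 0.41 below (adjusted p = 0.0142), a call lost without replicate 1 of treated des1 or replicate 1 or 2 of untreated wild type (adjusted p = 0.0585 to 0.0745).

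Most of the named genes were not called between the treated genotypes. Of 172 genes chosen by the naming rule, 17 passed the test, a larger share than the 1.4% of all probe sets. The rule picks genes by size of difference, partly on the same treated des1 arrays, so this share is not a neutral one. Of the 20 genes with the largest differences from untreated wild type, AT3G62550 alone differed between the treated genotypes by the test, and it was 0.56 lower in treated des1 (adjusted p = 0.0207). That call was lost with compared arrays only and without replicate 1 or 2 of either treated group (adjusted p = 0.061 to 0.13). HYH differed between them by -0.01, PORB by 0.08 and AT1G56300 by -0.02, and GR1 by 0.00. CCS, the copper chaperone, differed by 0.16 (adjusted p = 0.615), while DFR was 0.50 lower in treated des1 (adjusted p = 0.0441). The call of DFR was lost under 4 alternatives and without any 1 of the treated arrays but replicate 3 of treated des1 (adjusted p = 0.0531 to 0.221). Genes that did differ were PDF1.2 and PDF1.2b, which stood 1.57 and 1.69 above treated wild type in treated des1 (adjusted p = 1.17e-06 and 0.00014). AT2G33850 was 1.86 lower (adjusted p = 1.42e-07), LCR69 1.02 lower, CML41 0.88 lower (adjusted p = 5.90e-05) and AT5G48490 0.81 higher (adjusted p = 0.00033). AT2G25625 was 0.78 lower and AT4G29020 0.70 higher (adjusted p = 0.00263 and 0.0399). The call of AT4G29020 was lost without any 1 of the treated arrays but replicate 1 of treated des1 (adjusted p = 0.0984 to 0.179). AT5G33370 was 2.79 lower and AT5G61590, placed in the cuticle list by locus, 1.41 higher (adjusted p = 5.17e-09 and 1.50e-05). Replicate 1 of treated wild type correlated with its own group at 0.9929 to 0.9942, and the highest correlation between a treated des1 and a treated wild type array was 0.9961. The count of 318 fell to 273 without replicate 3 of treated wild type and to between 186 and 207 without any other of the treated arrays.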

How the data were processed

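RNA of leaves was labelled with a 3' IVT kit and hybridised to ATH1 arrays, per the labels' protocols. The deposited values are log2 expression made by RMA with affy, per the submitters' processing notes; their versions are not given in the sources used here. RMA brings arrays to 1 distribution and compresses dim differences. Arrays give no read depth, and their number limits the precision. Array medians lay between 5.71 and 5.80.

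The file held 22810 probe sets. After 64 controls were dropped, 22746 were tested: 13513 had 1 gene in the platform annotation, 503 several and 8730 none listed here, and 13436 matched a locus of the gene table of TAIR10.1, used for names only. The model, 1 mean for each group over the 12 arrays, used limma 3.58.1 in R 4.3.3 (lmFit, eBayes without trend), with Benjamini-Hochberg adjustment and a threshold of 0.05, and was tested on simulated data. Errors are limma standard errors (SE).

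Members and gene lists (40 lists, 611 genes measured) were chosen with earlier results of these data known. Each list gene has the probe set with the highest mean. Named were the 10 largest rises and falls without overlap in treated and in untreated des1, and up to 4 genes a list by size; other list members were chosen after their values were seen. The planned motif search was not made, as no promoter sequences were used here.

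Samples with the same replicate number did not deviate together (correlations -0.215 to 0.162), so the numbers share only a name. Alternatives were quantile normalization, median centring, removal of the dimmest 40 percent of probe sets, the compared arrays alone, a trended robust variance, a replicate block, a 2-fold minimum or margin, 1-gene probe sets and each array left out.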

Additional observations from a re-analysis of the deposited data

Results flagged for a closer look

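The response to Na2S differed between the genotypes at 8573 of 22746 probe sets by limma's test of the difference between the effects (the effect in des1 minus that in wild type), with 4232 higher and 4341 lower in des1. This test was added after the data were seen. It holds the untreated difference between the genotypes as well as the treated one, and these were called at 10166 and 318 probe sets.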

How the results depend on the processing

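The counts of calls kept to within 1.5 times their value under quantile normalization, median centring, the filter on dim probe sets and the trended variance. For treated des1 against untreated wild type they fell to 3598 with 1-gene probe sets only and to 1480 with a 2-fold minimum, which test or admit fewer probe sets by construction, and ran from 5985 to 6425 with 1 array left out. Under the same restrictions untreated des1 against untreated wild type gave 5397 and 3023 (9350 to 9833 with 1 array left out), treated against untreated des1 4442 and 1722 (7432 to 8171), and treated against untreated wild type 3526 and 1492 (5979 to 6560). Treated des1 against treated wild type gave 134 and 51, and 186 to 273 with 1 array left out, the lowest without replicate 2 of treated wild type. The counts within 1.5-fold ran from 14260 to 15047 in treated and from 11955 to 12306 in untreated des1 with 1 array left out.

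With the replicate number as a block, 6698 probe sets were called for treated des1 against untreated wild type, 10025 for untreated des1 against untreated wild type, 8235 for treated against untreated des1, 6728 for treated against untreated wild type and 274 between the treated groups. The numbers do not pair the samples.

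No called direction of the 172 genes chosen by the naming rule reversed under any alternative. The other list members named above were not followed gene by gene under the alternatives. Of 1066 list counts under an alternative, 44 moved by over 1.5 times. The study has 3 arrays a group and a single mutant line, dim probe sets are compressed, and 8730 probe sets carry no gene name here, so lists cover only part of each pathway.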

Other observations

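Enzyme families were called in treated des1 for 27.3% (cytochrome P450 genes), 32.6% (ubiquitin pathway), 41.2% (UDP-glycosyltransferases), 46.4% (beta-glucosidases and carboxypeptidases) and 50% (glutathione transferases) of their measured members, against 30.3% of all probe sets. In untreated des1 these shares were, in the same order, 45.5%, 52.2%, 52.9%, 46.4% and 50%, against 44.7% of all probe sets. Of 51 UDP-glycosyltransferases, 11 were higher and 10 lower in treated des1, and 19 were higher and 8 lower in untreated des1. Members such as UF3GT are counted in the flavonoid list too, so these counts are not separate from those above. UGT87A2, which acts on flowering time, and UGT71B1 stayed higher by 1.09 and 1.31, after 2.43 and 2.13. Of 22 cytochrome P450 genes, 3 were higher and 3 lower after treatment and 9 and 1 before. CYP71B23 went from 1.61 to -0.09 (adjusted p = 0.739), and CYP71B26 was lower by 1.05 after treatment (-0.19 before, adjusted p = 0.211). Of 14 glutathione transferases, 5 were higher and 2 lower in both states. GSTU23 (1.43 after, 1.25 before) and GSTU16 (0.92 and 1.98) were higher in each. Beta-glucosidases and carboxypeptidases, 28 in all, gave 3 higher and 10 lower in both states, where BGLU44 read 10.61, 10.55 and 10.60 in untreated wild type and 6.86, 6.67 and 6.70 in treated des1 (-3.84 ± 0.10, -4.05 before), with no overlap. PYK10 was lower by 3.33 after and 3.24 before. Of 46 ubiquitin pathway genes, 10 were higher and 5 lower after treatment and 17 and 7 before. PUB19, a ubiquitin ligase of the drought response, read 8.72, 8.65 and 8.62 in untreated des1 and 5.32, 5.60 and 5.47 in treated des1, which left it 0.46 above untreated wild type (adjusted p = 0.0015).

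Of 14 nitrogen and phosphate genes, 5 were higher, none lower and 9 did not pass in treated des1, 35.7% called against 30.3% of all probe sets. In untreated des1, 6 were higher and 1 lower, 50% called against 44.7%. The transporter genes AT1G68570 (1.95 after, 2.59 before) and AT3G21670 (1.34 and 1.69) were higher in both states. GTR1, a carrier of glucosinolates, was higher by 0.93 and 1.05, while its partner GTR2 went from 0.98 to 0.20 (adjusted p = 0.178). Of 6 glucosinolate genes, 2 were higher and 1 lower after treatment (50%) and 4 and 0 before (66.7%). The fall was in BCAT4, which starts the methionine chain (-0.52, adjusted p = 0.000324). Of 7 genes of cytochrome c and the alternative NAD(P)H dehydrogenases, CYTC-2 and NDB2 stayed higher (1.59 and 0.93 after, 0.93 and 1.78 before).

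Of the other hormone lists, the auxin genes were called in treated des1 for 23.5% of members, the cytokinin genes for 33.3% and the gibberellin and brassinosteroid genes for 66.7%, against 30.3% of all probe sets. Of 17 auxin genes, 1 was higher and 3 lower after treatment and 2 and 3 before; IAA29, an auxin repressor protein, was lower by 2.33 and 2.25. Without replicate 1 of untreated wild type, 3 auxin genes in place of 5 passed in untreated des1. Of 6 gibberellin and brassinosteroid genes, 1 was higher and 3 lower after treatment and 2 and 1 before. The gibberellin receptor GID1B stayed higher (0.73 after, 1.61 before), and GID1C was lower by 0.62 after treatment (-0.05 before, adjusted p = 0.839). Of 6 cytokinin response regulators, ARR15 went from 1.63 below to 0.51 above and RR16 from 0.77 to 0.34 below; neither passed without replicate 1 of treated des1 or replicate 1 of untreated wild type. EIN3, a transcription factor of the ethylene response, went from 0.25 above to 0.38 below (adjusted p = 0.00462), but the call in untreated des1 was lost with quantile normalization, with compared arrays only, with the replicate number as a block and without any 1 of 4 arrays (adjusted p = 0.0503 to 0.164).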
